A study of Homo sapiens with 6 samples.

Results

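The genes described here are the protein-coding homeobox and T-box factors of LX-2 cells: every protein-coding row whose symbol belongs to the HOX, TBX, MEOX, MSX, PRRX, PITX, sine oculis (SIX2 and relatives), LHX, IRX, DLX, MEIS, PBX, NKX, EN, EMX, SHOX or ALX series. Choosing by symbol alone, without regard to level, gave 96 genes of the 16569 in the table, and 67 of the 96 were measured well enough to be tested. LX-2 is a line of human hepatic stellate cells, pericytes of the liver sinusoid that become scar-forming myofibroblasts when the liver is injured. Its genotype is given as wild type. Cells grown with 2% fetal bovine serum were deprived of serum for 18 h and then received either phosphate-buffered saline (PBS) or 100 ng/mL of IGFBP-7, a secreted protein related to the binding proteins of insulin-like growth factors. RNA was taken 24 h later. Each group had 3 libraries. Both groups share the line, the serum withdrawal and the time, so the protein is the labelled difference between them. No label says whether libraries of a group are separate cultures; p-values therefore reflect the scatter among these 3 libraries per group, part or all of which may be technical.

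Homeobox and T-box proteins bind DNA and set positional and tissue identity in the embryo. HOX genes lie in clusters in which the order along the chromosome follows the order of expression along the body axis: low-numbered genes act toward the head, high-numbered genes toward the tail and the ends of the limbs. PBX and MEIS proteins bind DNA together with HOX proteins. Fibroblasts and other mesenchymal cells of the adult keep much of the HOX pattern of the site they came from, and for that reason HOX transcripts are found in stellate and other stromal cells.

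The promoter windows of 2 members are shown. HOXD11 was among the members that rose most, with a log2 change of 1.47, and NKX2-3 was the member that fell most. LHX6 (1.79) and PITX3 (1.96) rose more than HOXD11 and also had windows, which are not shown. The windows shown are the bases before each gene's start in RefSeq (GRCh38.p14). HOXD11 is shown at chr2:176107030-176107279 on the plus strand. That window lies within the span of HOXD11 in GENCODE release 29, chr2:176104216-176109754. NKX2-3 is shown at chr10:99532692-99532932 on the plus strand.

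HOXD11: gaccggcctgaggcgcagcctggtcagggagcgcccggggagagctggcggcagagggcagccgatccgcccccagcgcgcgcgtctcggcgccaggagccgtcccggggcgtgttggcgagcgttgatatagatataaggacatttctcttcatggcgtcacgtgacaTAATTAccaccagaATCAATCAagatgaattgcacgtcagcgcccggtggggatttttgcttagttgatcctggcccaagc

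NKX2-3: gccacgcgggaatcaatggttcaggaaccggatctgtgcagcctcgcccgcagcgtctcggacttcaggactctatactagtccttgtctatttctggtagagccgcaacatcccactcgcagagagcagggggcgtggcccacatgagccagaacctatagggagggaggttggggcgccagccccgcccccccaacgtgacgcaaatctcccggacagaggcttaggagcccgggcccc

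Capitals mark the letters that matched a motif on either strand. In the HOXD11 window these are TAATTA, the core bound by many homeodomains, and 1 match to TGATTNAT, a site of joint HOX and PBX binding, which reads as its reverse complement on the strand shown. The NKX2-3 window held no match to either of them, nor to the other 4 motifs searched. Those were half-sites of SMAD and T-box factors, the AP-1 site and the TATA box. Windows of LHX6 and PITX3, not shown, held the SMAD half-site, and LHX6 also the TATA box, but neither held TAATTA or TGATTNAT. The HOXD11 window held 23 CpG dinucleotides in 250 bases and the NKX2-3 window 16 in 241, against a median of 11 over all 35097 windows of 250 bases. TAATTA was found in 4.35% of all windows and in 6 of the 73 windows of members (8.22%). TGATTNAT was found in 2.48% of all windows and in 4 of the 73 (5.48%), and the SMAD half-site CAGAC in 38.0% of all and 28 of the 73 (38.4%). The T-box half-site AGGTGTGA was in 0.786% of all windows and 0 of the 73. The AP-1 site TGANTCA was in 6.57% of all and 3 of the 73 (4.11%). The TATA box TATAAA was in 10.7% of all and 8 of the 73 (11.0%). The windows cover 56 of the 96 members, and a match describes the letters only.

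Values are the authors' normalized counts. A gene was tested where its mean over the 6 libraries was at least 10, with limma-trend on log2(normalized count + 1), two-sided, and it was called at a Benjamini-Hochberg adjusted p under 0.05 over all 11872 tested genes. Log2 changes are IGFBP-7 minus PBS with limma's standard error (SE). The added 1 draws the log2 change of genes at low level toward 0, and a difference of mean logs can depart from the ratio of the group means in either direction. Levels of different genes are not compared, since the values are not scaled by gene length. Depth, as reads recovered from the values, was 20299667 to 21768983 per PBS library and 22621470 to 27739997 per IGFBP-7 library.

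Of the 67 tested members, 20 rose with IGFBP-7, 16 fell and 31 did not pass. That is 53.7% called, where 60.6% of all tested genes were called. By direction, 31.3% of all tested genes were called higher and 29.2% lower. The median log2 change was 0.15 over the members and 0.02 over all tested genes, and the members ranged from -1.75 to 2.00. Values of the 2 groups did not overlap for 38 members, 19 above and 19 below PBS, and this held for 63.5% of all tested genes. At a change of at least 2-fold, 7 members were called higher and 3 lower, 10 of 67, where 11.4% of all tested genes were called at that size. Without regard to level, the members were thus not called more often than other genes in the table, of which 65.9% of those coding for protein were called. Their median level was lower, 194 against 536 over all tested genes, and shares by level are given below. What follows describes which of the members moved.

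**Figure D1:**
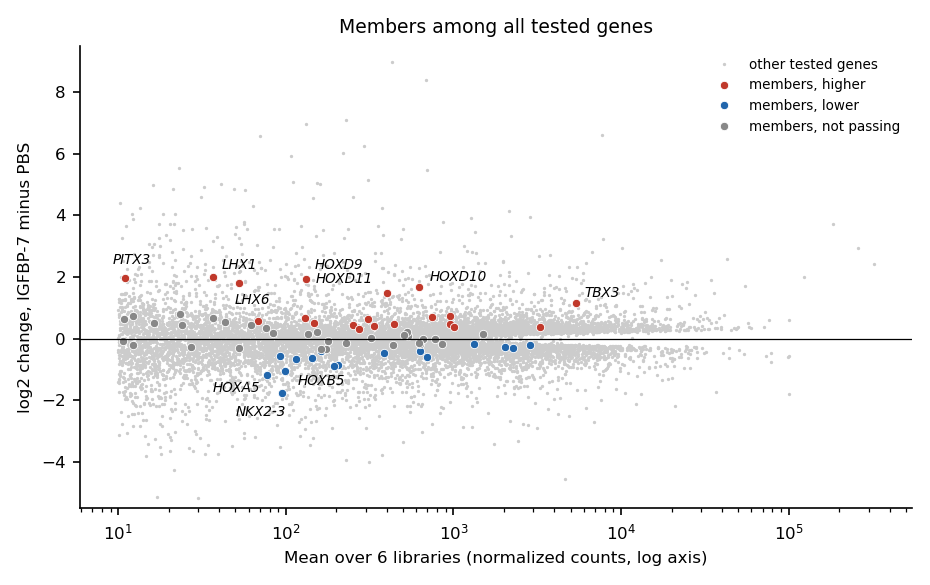
Each point is a tested gene, placed by its mean over 6 libraries (normalized counts, log axis) and its log2 change (IGFBP-7 minus PBS). Members are drawn large, in red where called higher, blue where called lower and grey where not passing, and members called at 2-fold or more are named. The 67 members lie between -1.75 and 2.00, and the band around 0 is nearly empty of genes at high levels.

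The table itself bears on these shares. Of the 1848 tested genes with a mean of at least 3000, only 6 changed by less than 0.1 on the log2 scale in either direction while 607 changed by 0.2 to 0.3, and 99.5% were called. Among the 3022 tested genes with a mean of 10 to 100 the same counts were 340 and 321, and 26.9% were called. The lowest coefficient of variation over the 6 libraries was 3.65% among genes with a mean of 10 to 100 and 7.98% among those with a mean of 3000 or more. Well-expressed genes that vary little are thus scarce among the rows used here, and the shares hold for genes of this table only. Read by level, 8 of 22 members were called at means of 10 to 100, where 26.9% of all genes were, and 21 of 37 at means of 100 to 1000, where 51.9% were. At means of 1000 to 3000, 5 of 6 members were called beside 86.9% of all genes, and above that 2 of 2. Genes of these series without a row were not analysed here.

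Scaling bears on the split by direction. With each library scaled to its total over the table, the median of all tested genes moved from 0.02 to -0.12. Of all called genes, 36.8% were then higher in place of 51.7%, and among the called members 40.5% in place of 55.6%, with 15 higher and 22 lower. Each member called in both ways kept its direction.

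The calls of HOX genes differed by gene number, with falls at low numbers in the HOXA and HOXB clusters only. Of the 29 tested of 37, 9 rose and 10 fell, and the median log2 change was -0.01. Of the 12 tested genes numbered 1 to 5, 8 fell and 0 rose, and their median was -0.58. Each of the falls was in HOXA or HOXB. HOXC4 (-0.01), HOXC5 (0.34), HOXD3 (-0.19) and HOXD4 (0.45) did not pass. Of the 12 tested genes numbered 9 to 13, 8 rose and 1 fell, and their median was 0.45. In between, the 5 tested genes numbered 6 to 8 gave 1 rise and 1 fall around a median of 0.15. No gene numbered 1 to 5 was called higher by edgeR or DESeq2 on recovered reads, and none had a positive change at an unadjusted p under 0.05 in limma. This division by number was made after the values were seen and carries no test.

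**Figure D2:**
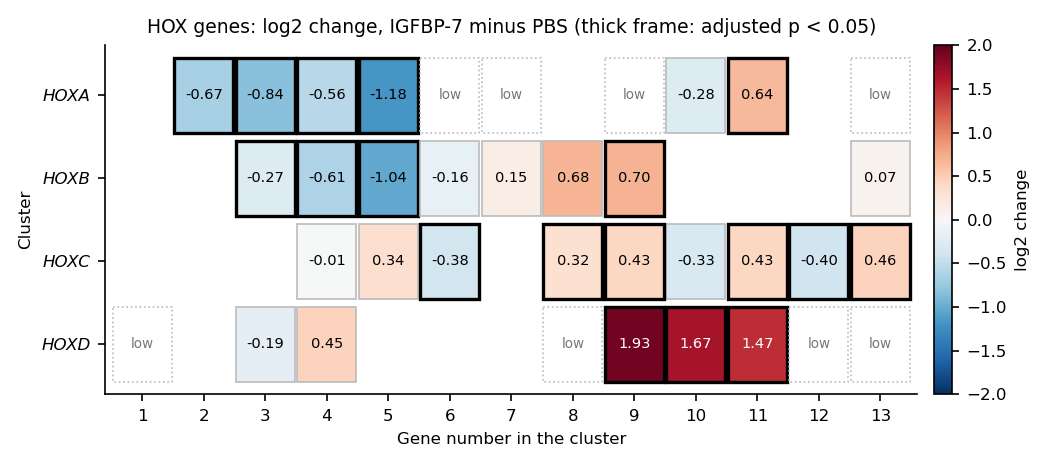
HOX genes by cluster (rows) and gene number (columns), with the log2 change (IGFBP-7 minus PBS) written in each square and shown by its colour, thick frames at adjusted p under 0.05 and "low" for genes under the level tested. A few members are not drawn. HOXA2 to HOXA5 and HOXB3 to HOXB5 are all negative, from -0.27 to -1.18, and HOXD9 to HOXD11 are positive, from 1.47 to 1.93.

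The HOXD genes that pattern the limb rose most among the HOX genes. HOXD9, HOXD10 and HOXD11 are neighbours on the plus strand of chromosome 2. In GENCODE release 29 (GRCh38), matched by Ensembl identifier, HOXD11 spans chr2:176104216-176109754, HOXD10 spans chr2:176108790-176119942 and HOXD9 spans chr2:176122720-176124937. HOXD10, needed for motor neurons and hindlimb pattern, had 288, 293 and 310 normalized counts in the PBS libraries and 961, 1015 and 862 with IGFBP-7. Every IGFBP-7 library lay far above every PBS library. The log2 change was 1.67 ± 0.10 (SE, limma adjusted p = 7.92e-20), or 3.17-fold. HOXD11, which acts in forelimb and kidney and whose promoter window is printed above, had 203, 218 and 214 with PBS and 608, 635 and 526 with IGFBP-7. The groups again stood well apart, with a log2 change of 1.47 ± 0.12 (limma adjusted p = 3.29e-15). HOXD9 had 33.0, 64.8 and 72.6 with PBS and 202, 207 and 214 with IGFBP-7. Its 3 IGFBP-7 libraries were close together while the first PBS library was lower than the other 2, and the log2 change was 1.93 ± 0.22 (limma adjusted p = 1.83e-10). HOXD3 and HOXD4, nearer the other end of the cluster, were low in both groups, with 11.4 ± 3.13 against 13.1 ± 9.58 for HOXD3 as mean ± SD (n = 3, PBS first), and 21.6, 24.6 and 13.9 against 32.7, 19.5 and 31.0 for HOXD4. Neither passed. HOXD8, next to HOXD9, was at 7.46 ± 4.95 with PBS and 10.2 ± 2.00 with IGFBP-7, under the level tested.

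The HOXA genes of low number fell. HOXA2, HOXA3, HOXA4 and HOXA5 were called lower, by 0.67, 0.84, 0.56 and 1.18 on the log2 scale in that order. HOXA5, which patterns the lung and the neck skeleton, had 114, 118 and 87.6 normalized counts with PBS and 30.7, 66.9 and 47.5 with IGFBP-7. The groups did not overlap, although the IGFBP-7 libraries differed by more than 2-fold among themselves, and HOXA5 fell by 1.18 ± 0.26 (limma adjusted p = 1.30e-04). HOXA3, a gene of the pharyngeal arches, went from 262 ± 32.6 to 148 ± 34.2 (mean ± SD, n = 3). HOXA2, which patterns the hindbrain, went from 140 ± 19.2 to 89.1 ± 23.5. HOXA4 is the least firm of these: its adjusted p of 0.0263 in limma rose above the threshold in 5 of 13 alternatives, up to 0.105 without the second IGFBP-7 library. At the other end of the cluster HOXA11, a gene of the forearm and uterus, rose from 240 ± 25.4 to 374 ± 21.8, by 0.64 ± 0.13 (limma adjusted p = 3.11e-05). HOXA10 did not pass (31.9 ± 22.0 against 22.6 ± 6.22). HOXA6, HOXA7, HOXA9 and HOXA13 were too low to test.

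HOXB genes also fell at the low-numbered end: of the 8, all tested, 3 fell and 1 rose. HOXB5, which takes part in enteric and lung development, had 142, 126 and 131 normalized counts with PBS and 47.0, 83.0 and 67.2 with IGFBP-7. Every PBS library was above every IGFBP-7 library, and the gene fell by 1.04 ± 0.23 (limma adjusted p = 8.28e-05). HOXB4, known for its role in blood stem cells, went from 835 ± 56.6 to 546 ± 21.2, and HOXB3 from 2216 ± 58.2 to 1842 ± 42.3, both called lower. HOXB9 had 545, 575 and 584 with PBS and 972, 990 and 817 with IGFBP-7 and rose by 0.70 ± 0.09 (limma adjusted p = 7.02e-09). HOXB6, HOXB7, HOXB8 and HOXB13 did not pass. HOXB8 lay above PBS in all 3 IGFBP-7 libraries (28.2 ± 6.85 against 45.3 ± 7.09, mean ± SD, n = 3), with a limma adjusted p of 0.0835.

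Among the clusters, HOXC genes had the smallest changes. All 9 were tested. Of these 4 rose and 2 fell, and their log2 changes stayed between -0.40 and 0.46. HOXC13, a gene of hair and nail, rose from 373 ± 37.4 to 514 ± 40.4. HOXC11 went from 213 ± 17.9 to 287 ± 31.1, HOXC9 from 287 ± 27.2 to 388 ± 57.3 and HOXC8 from 244 ± 15.1 to 304 ± 11.6. HOXC6 fell from 712 ± 60.3 to 545 ± 45.1, and HOXC12 went from 183 ± 9.73 to 139 ± 18.0. The last 5 of these 6 are of unequal firmness: HOXC6 kept its call in all 14 alternatives, HOXC9 and HOXC11 lost it in 2 each, HOXC12 in 6 and HOXC8 in 7. With scaling to the library total HOXC8, HOXC9 and HOXC11 did not pass (adjusted p = 0.259, 0.0563 and 0.0817).

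Genes in the HOX clusters overlap one another in the annotation, compared here by whole spans, introns included. No source used here states whether counting used strand. In GENCODE release 29, 32 of the 96 members overlap a gene of the table on the opposite strand, 23 of them tested and 15 called. On the same strand, 23 members overlap another gene, among them HOXD10 with HOXD11, HOXA3 with HOXA4 and HOXA5, HOXB3 with HOXB4 and HOXB5, and HOXC6 with HOXC8 and HOXC9. Whether such pairs share exons was not examined. How reads in any shared exons were split is not known, so these members may not be independent measurements. Of the 36 called members, 17 overlap no other gene of the table, among them HOXA2, HOXC12, IRX3, LHX1, LHX6, LHX9, MSX1, NKX2-3, NKX2-6, SIX4, TBX3, MEIS2, MEIS3, PBX3 and PITX3.

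The noncoding genes inside the clusters mostly had the sign of their HOX neighbours, though many of these signs belong to genes that did not pass. Of 25 pairs of a tested HOX gene and a tested gene on the opposite strand, 1 holds a gene that is not reported here. Over the other 24 pairs 20 had the same sign, with 17 HOX genes and 15 opposite-strand genes, several of them used more than once. Signs were counted whether or not a gene was called. HOXD3 (-0.19), which did not pass, was positive by edgeR (0.20) and DESeq2 (0.19) on recovered reads. HOXB-AS3 (-0.12) and HOXA-AS3 (-0.71), neither of which passed, each enter several pairs. Without strand, reads from any stretch that the 2 genes of a pair share cannot be told apart. HOXD-AS2, opposite HOXD9, had 45.3, 15.7 and 31.0 normalized counts with PBS and 85.9, 82.1 and 69.2 with IGFBP-7 (log2 change 1.45 ± 0.32). Its 3 IGFBP-7 libraries were all above PBS. HOXA-AS2 went from 260 ± 52.0 to 112 ± 15.1 and HOTAIRM1, also of the HOXA cluster, from 227 ± 6.91 to 121 ± 18.6, and both were called lower. HOXB-AS4, opposite HOXB7, rose from 36.4 ± 5.17 to 150 ± 26.1 (log2 change 2.01 ± 0.24) while HOXB7 did not pass (1417 ± 125 to 1572 ± 48.4). HOTAIR, a noncoding RNA of the HOXC cluster, was called higher by 0.46, close to the 0.43 of HOXC11. Of the 19 tested noncoding genes listed beside members, 7 rose, 2 fell and 10 did not pass. That is 47.4% called, beside 60.6% of all tested genes.

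**Figure D3:**
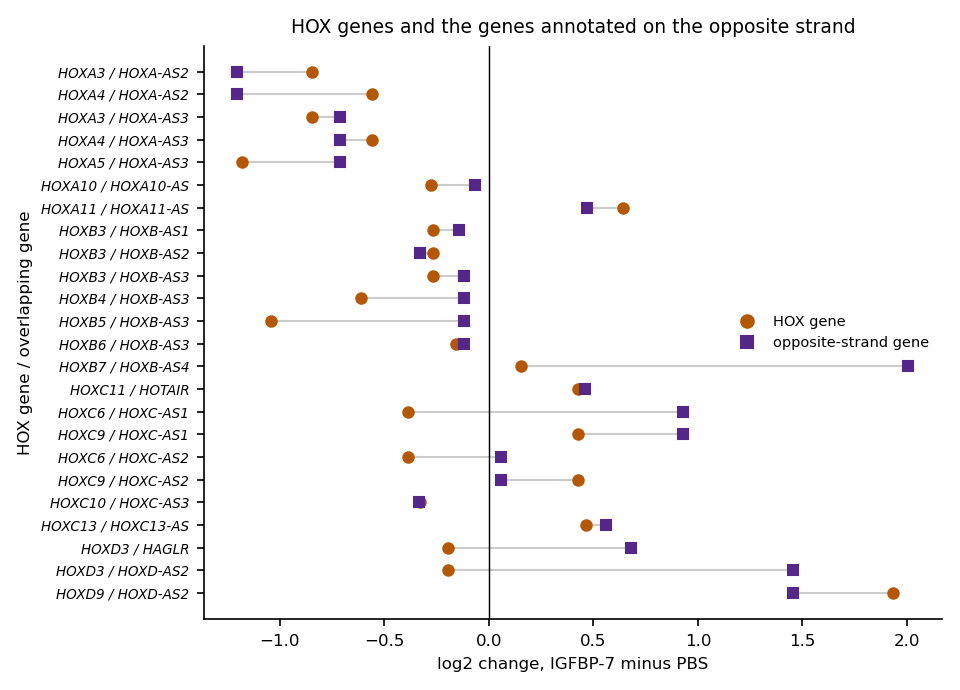
Each line is a HOX gene (circle) and a gene annotated on its opposite strand (square), placed by log2 change (IGFBP-7 minus PBS). In 20 of the 24 pairs drawn both fall on the same side of 0, whether or not they were called. HOXB7 with HOXB-AS4 and HOXD3 with HOXD-AS2 lie far apart, though the sign of HOXD3 changed in some alternatives.

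The nearest coding genes of the table on each side of the clusters moved either way. Of the 24 coding genes of the table that lie nearest to the 4 clusters, 3 on each side, 19 were tested. No limit was set on distance, and genes without a row were passed over, so these genes need not adjoin a cluster. Of those tested, 7 were called higher and 8 lower, around a median of -0.06, where 60.6% of all tested genes were called. On the HOXD13 side, CHN1 rose by 1.14 ± 0.06, while LNPK, the nearest there with a row, did not pass (0.13 ± 0.07). On the HOXD1 side, AGPS, the nearest with a row, rose by 0.84 ± 0.06. This set was chosen after the values were seen.

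The PBX and MEIS genes, whose proteins are the DNA-binding partners of HOX factors, gave no call at 2-fold. PBX3 had 2927, 3214 and 3093 normalized counts with PBS and 2902, 2557 and 2526 with IGFBP-7. The highest IGFBP-7 library lay just under the lowest PBS library, and PBX3 fell by 0.21 ± 0.06 (limma adjusted p = 0.00308). MEIS3 rose from 2871 ± 87.2 to 3702 ± 209. MEIS2 went from 1397 ± 32.0 to 1242 ± 113, but its adjusted p of 0.0465 crossed the threshold in 7 of 14 alternatives, up to 0.302 without the third IGFBP-7 library. PBX4 did not pass. IRX3, the only IRX gene tested and, like MEIS and PBX, of the TALE class of homeobox genes, had 256, 268 and 234 with PBS and 128, 141 and 137 with IGFBP-7. It fell by 0.90 ± 0.16 (limma adjusted p = 2.91e-06) with no overlap.

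Of the T-box genes 6 of 10 were tested, and 1 rose and 1 fell. TBX3, a repressor needed for limb, mammary and liver development, had 3209, 3443 and 3437 normalized counts with PBS and 7704, 7368 and 7205 with IGFBP-7. Libraries of a group differed by little beside the gap between the groups, and TBX3 rose by 1.14 ± 0.05 (limma adjusted p = 6.67e-25), or 2.21-fold. TBX18, a gene of the epicardium and of ureter mesenchyme, went the other way, with 2428, 2457 and 2581 against 1946, 2184 and 1936. It was called lower by 0.30 ± 0.07 (limma adjusted p = 8.17e-05). TBX15, TBX19 and TBX20 did not pass, with adjusted p from 0.304 to 0.479, and nor did TBX1. TBX1, the gene of the pharyngeal arches, was at 11.8 ± 6.85 and 9.67 ± 1.05, and TBX15 at 8.44 ± 4.64 and 15.9 ± 10.6.

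**Figure D4:**
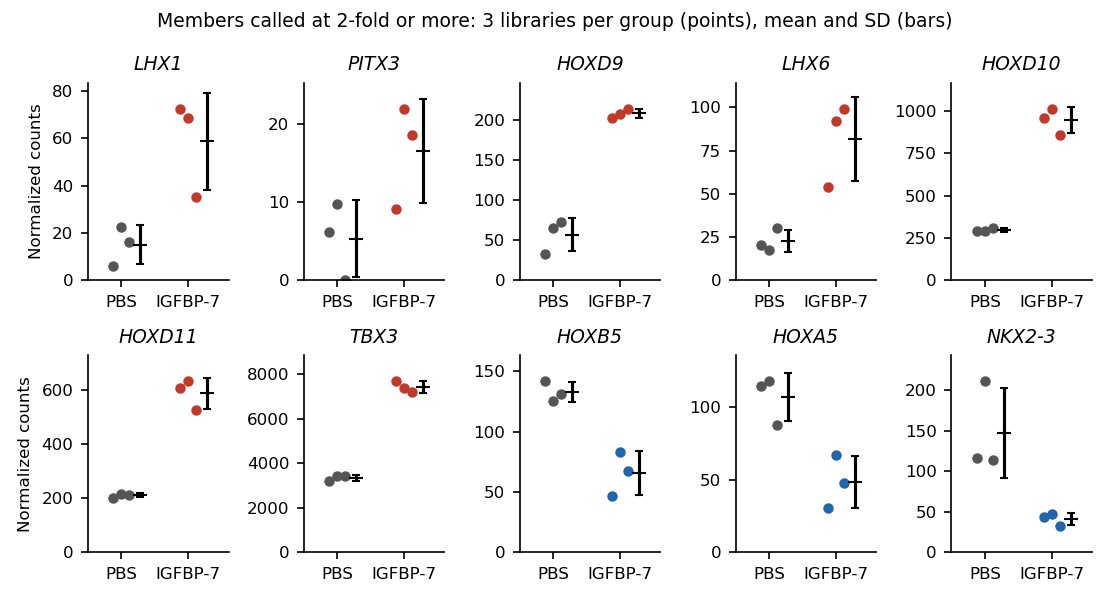
Normalized counts (linear axis from 0) of the 10 members called at 2-fold or more, with 3 PBS libraries (grey) and 3 IGFBP-7 libraries (red where higher, blue where lower) as points and bars for the mean and SD. In 9 of the 10 the groups do not overlap, the exception being PITX3.

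LIM homeobox genes included 2 of the members that rose most, both from a low level. Of the 5 tested of 7, 3 rose and 2 did not pass. LHX6, a gene of cortical interneurons and of the first pharyngeal arch, had 20.6, 17.7 and 29.9 normalized counts with PBS and 54.2, 92.3 and 99.2 with IGFBP-7. Its groups did not overlap, and it rose by 1.79 ± 0.33 (limma adjusted p = 5.42e-06). LHX1, a gene of the head organizer and the kidney, had 6.18, 22.6 and 16.0 with PBS and 72.6, 68.6 and 35.1 with IGFBP-7. The first PBS library was at the level of 3 sequenced fragments, the limit of detection used here. LHX1 rose by 2.00 ± 0.42 (limma adjusted p = 5.27e-05) and kept its call in the 13 alternatives that tested it. The noncoding gene beside it, LHX1-DT, had 2.06, 5.89 and 2.14 with PBS and 40.9, 44.0 and 26.9 with IGFBP-7, so both genes were low in every PBS library and lowest, among IGFBP-7 libraries, in the third. LHX9, a gene of the gonad, rose from 101 ± 21.1 to 158 ± 7.54. LHX2, whose loss in mice leads to liver fibrosis, did not pass (902 ± 90.6 against 802 ± 34.8, adjusted p = 0.101), and with scaling to the library total it was called lower.

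Among the MSX, DLX and NKX genes, NKX2-3 fell most of all members. With EN, EMX and MEOX genes these count 21, of which 11 were tested, 4 rose and 1 fell. NKX2-3, which shapes spleen and gut mesenchyme, had 116, 211 and 113 normalized counts with PBS and 44.0, 47.4 and 33.1 with IGFBP-7. The second PBS library was nearly 2-fold above the other 2, and even the lowest PBS library was more than 2-fold above the highest IGFBP-7 library. NKX2-3 fell by 1.75 ± 0.25 (limma adjusted p = 4.53e-08). MSX1, a target of BMP signalling in tooth and palate, had 584, 845 and 728 with PBS and 1101, 1121 and 1318 with IGFBP-7, and it rose by 0.73 ± 0.10 without overlap. NKX2-6 and NKX6-2 were called higher, but the call of NKX2-6 was lost in 4 of 14 alternatives and that of NKX6-2 in 8 of 13. DLX1, DLX2, DLX4, MSX2, NKX2-5 and NKX3-2 did not pass.

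The SIX2 family and the paired-type genes gave few calls. SIX4, a gene of muscle and kidney precursors, rose from 871 ± 44.9 to 1135 ± 39.0 (0.38 ± 0.08, limma adjusted p = 6.51e-05). SIX2, SIX3 and SIX5 did not pass, and SIX3 had 0, 15.7 and 12.8 normalized counts against 22.5, 1.69 and 12.4, so that the libraries of each group ranged over most of the scale. PITX3, a gene of the lens and of midbrain dopamine neurons, had 6.18, 9.82 and 0 with PBS and 9.20, 22.0 and 18.6 with IGFBP-7. The groups overlapped. Its log2 change of 1.96 ± 0.78 passed at a limma adjusted p of 0.0265, and the call was lost in 4 of 13 alternatives. Without the third PBS library the change was 0.92 with an adjusted p of 0.237, and without the second PBS library it was 2.63. PRRX1, a marker of limb and body-wall mesenchyme, had 14.4, 11.8 and 25.6 against 32.7, 23.7 and 32.0 and did not pass (adjusted p = 0.111). PITX1 and SHOX2 did not pass either.

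**Figure D5:**
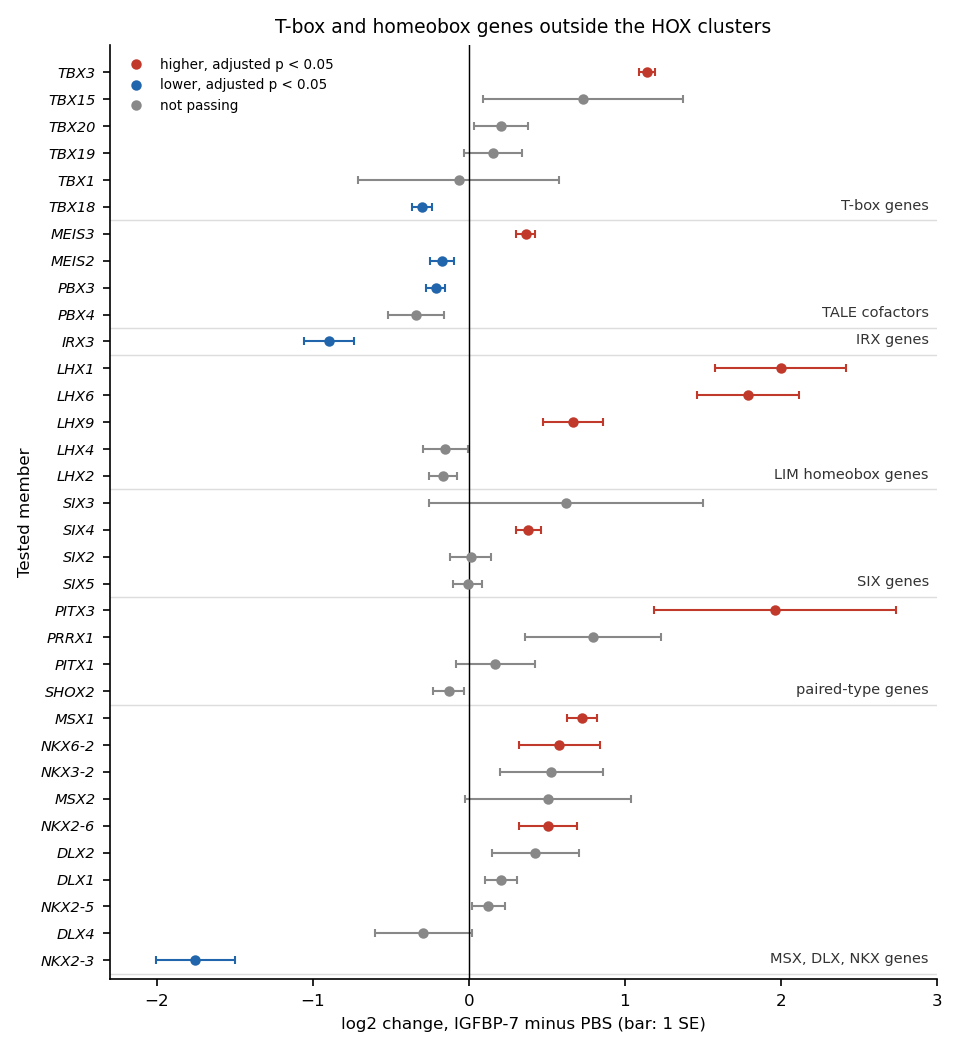
Log2 change (IGFBP-7 minus PBS, bars 1 SE) of tested members outside the HOX clusters, grouped by family and coloured by call. TBX3, LHX1, LHX6 and PITX3 lie above 1 and NKX2-3 below -1, and PITX3 has one of the widest errors.

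The 29 members that were not tested were near the limit of detection. A level of 3 sequenced fragments, the limit that a count of 0 allows for counting error, corresponded to 5.08 to 6.41 normalized counts, and 11 members stayed under it in all 6 libraries: DLX3, DLX6, EMX1, HOXD1, HOXD13, IRX5, IRX6, LHX3, NKX2-8, TBX10 and TBX5. The other 18 reached it in at least 1 library, with 19.6 for HOXA13 in 1 PBS library as the highest value. MEOX1, a factor of somites and of activated fibroblasts, had 2.06, 3.93 and 6.41 normalized counts with PBS and 10.2, 8.47 and 13.4 with IGFBP-7. Those groups did not overlap, though its adjusted p was 0.110 when all genes were tested without the level limit. HOXA7 had 6.18, 1.96 and 2.14 with PBS and 0 in all 3 IGFBP-7 libraries, and HOXD12 was at 0 in all 3 PBS libraries with 0, 3.39 and 10.3 after IGFBP-7. Tested in the same way, HOXA7 had an adjusted p of 0.0232 and HOXD12 of 0.0583. HOXA13 (11.5 ± 7.79 against 8.32 ± 4.16), NKX6-1 (6.96 ± 4.50 against 10.3 ± 3.57) and PRRX2 (5.99 ± 5.89 against 11.9 ± 4.97) crossed a mean of 10 in 1 group only and overlapped between groups.

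Homeobox genes outside these series included larger changes. Of 44 tested genes of a list of other homeobox and T-box genes, 16 rose and 12 fell, with a median of 0.21. That is 63.6% called, beside 60.6% of all tested genes. PKNOX2, which belongs with MEIS and PBX, had 72.1, 72.7 and 55.5 normalized counts with PBS and 754, 630 and 698 with IGFBP-7. Its 3.37 ± 0.15 exceeded the change of every member. POU4F2 and DMBX1, genes of retina and brain, rose from 1.34 ± 1.16 to 35.7 ± 14.8 and from 2.77 ± 1.31 to 29.9 ± 4.42. DRGX, a gene of sensory neurons, went from 55.5 ± 8.37 to 6.04 ± 4.27, MKX, a tendon factor, from 56.5 ± 15.3 to 13.1 ± 3.69, and HOPX from 194 ± 20.1 to 91.0 ± 2.60. Scaled to the library total, the list gave 10 rises and 13 falls.

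Genes that act with or upstream of these factors were mixed. Of 20 tested partners, 10 rose and 7 fell, or 85% called beside 60.6% of all tested genes. The median level of the partners was 1973, and at means of 1000 to 3000 the share over all genes was 86.9%. LDB2, the adaptor that joins LIM homeobox proteins, rose by 2.37 ± 0.20 and SSBP3, which stabilises LDB proteins, by 1.54 ± 0.06, while the related SSBP2 fell by 0.76 ± 0.10. Of 25 tested Polycomb and trithorax genes, whose proteins hold HOX genes silent or active, 15 rose and 8 fell, or 92% called. Their median level was 2550, and 86.9% of all genes at means of 1000 to 3000 were called. With libraries scaled to their totals, 7 rose and 8 fell. KDM6B, a demethylase that removes the Polycomb mark, rose from 1286 ± 40.0 to 3832 ± 30.3 while CBX7 fell from 923 ± 47.5 to 470 ± 17.9. Of 13 tested genes of retinoic acid signalling, a known regulator of low-numbered HOX genes, 2 rose and 7 fell, or 69.2% called. STRA6, a receptor for retinol-binding protein, rose from 4.20 ± 3.64 to 110 ± 47.2, and RARRES2 fell from 724 ± 84.3 to 159 ± 28.4. TGM2, an enzyme induced by retinoic acid in many cells, fell from 2668 ± 45.1 to 1364 ± 71.2. RARA of the same list rose from 1469 ± 106 to 2214 ± 99.1, and RARB, CRABP2 and CYP26B1 did not pass. The links between these genes and the members were not tested.

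Markers of cell types moved with the groups. The summed level of 14 stellate and fibroblast markers with a row was 71876 to 76330 with PBS and 225792 to 245711 with IGFBP-7, set largely by COL1A1 (49614 ± 1794 to 198928 ± 8843, mean ± SD, n = 3). The list did not move as 1: of 13 tested markers 7 were called higher and 3 lower, with RELN at -2.90, LUM at -1.68 and THY1 at -0.27 on the log2 scale, and DCN was below PBS in all 3 IGFBP-7 libraries without passing. DES, the stellate intermediate filament, was under 10 in both groups. Of 10 hepatocyte markers 8 were under 10 in both groups, ALB, APOA1 and HNF4A among them, with sums of 2632 to 2692 and 3088 to 3362 that were mostly CPS1. EPCAM, CDH1 and KRT19 were under 10 in both groups, although the 9 epithelial markers, chiefly KRT8 and KRT18, summed to 26779 to 27601 with PBS and 36574 to 42795 with IGFBP-7. The sums of 9 endothelial markers were 759 to 856 and 1050 to 1158, with CDH5 under 10, and those of 10 macrophage and leukocyte markers 3375 to 3470 and 1774 to 2068, with PTPRC under 10. CD68 and CD14 made up most of the latter sums and were called lower, while CSF1R of the same list rose from 56.5 ± 8.05 to 293 ± 44.3. Their part in the changes of homeobox and T-box genes was not tested. In bulk libraries fewer cells that express a gene and less RNA of it per cell cannot be told apart.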

How the data were processed

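Polyadenylated RNA of 6 LX-2 libraries was measured by RNA sequencing with a directional kit, per the labels. The deposited table holds normalized counts, a signal that the authors made from read counts, per the file headers; the submitters' processing notes list the tools STAR, Subread, featureCounts and DESeq2 but give neither their versions nor what each did. No source used here gives the genome build, the annotation or the strand setting of the counting. Per-sample columns left unused numbered 0.

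Values were whole multiples of 1 step per library within 0.01 of a read for 99.55% to 99.62% of values. Among values under 10 reads 76.8% to 79.4% were even, against 49.5% to 51.7% over 2000 reads, and 2 reads were taken as 1 sequenced fragment; limits from 3 fragments cover counting error only, as reads are not independent molecules. A chi-square statistic on recovered reads, not fragments, between libraries of a group was 5.26 to 7.23 per degree of freedom, so no library was a copy of another.

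The test was limma-trend (limma 3.58.1, R 4.3.3) on log2(normalized count + 1), as the values are not raw counts, over the 3 PBS and 3 IGFBP-7 libraries, without covariates. Alternatives were edgeR 4.0.16 and DESeq2 1.42.0 on recovered reads, a pseudocount of 5, other filters and scalings, a replicate block and leaving out each library. The test was also run on simulated counts in which only a small part of the genes changed. Far more genes were called here, so that run does not bear on the share called. Members, gene lists and tests were chosen with earlier results of these data known. Members with an adjusted p under 0.05 and a log2 change of at least 1, the tested member of largest change in a family without one, and members with a mean of at least 10 in 1 group only are named with values; other members are given by name, level or count, and some are counted but not reported here by name. From each list up to 3 genes per direction with the largest called change could be named. Others were named outside that rule with their values known, among them HOTAIR, HEYL, HEY1, SNAI2, GATA4 and some genes that did not pass. Sequences are from RefSeq promoters (GRCh38.p14), trimmed before annotated exons where needed. Overlaps use GENCODE release 29. Marker lists cover stellate, hepatocyte, endothelial, leukocyte and epithelial cells.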

Additional observations from a re-analysis of the deposited data

How the results depend on the processing

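Of the 36 called members, 27 kept their direction and their call in every alternative that tested them, up to 14 each, and 9 lost the call in at least 1: HOXA4, HOXC8, HOXC9, HOXC11, HOXC12, MEIS2, NKX2-6, NKX6-2 and PITX3. Leaving out 1 library at a time gave 16 to 19 members higher and 14 to 16 lower, and 3403 to 3605 of all genes higher and 3180 to 3299 lower. With scaling to the library total 2435 of all genes were higher, and the members called numbered 37: those gained included HOXB6, HOXC10, LHX2, PBX4 and SHOX2, and those lost were HOXC8, HOXC9, HOXC11, NKX2-6 and NKX6-2. Of the 31 members not called, 12 changed sign in at least 1 of the 14 alternatives, and of the 36 called 0 did, wherever an alternative tested them. Among the former, members followed by name were SIX3, from -0.68 without PBS replicate 1 and -0.03 without IGFBP-7 replicate 1 to 1.53 without IGFBP-7 replicate 2, and TBX1, from -0.65 without PBS replicate 2 to 0.02 without IGFBP-7 replicate 2, 0.20 without PBS replicate 3 and 0.26 without PBS replicate 1. The cause was not tested. In the division by HOX number, a filter at a mean of 100 left 5 genes numbered 1 to 5 lower, as fewer were tested.

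The shared replicate numbers do not pair the libraries: deviations of same-numbered libraries correlated at -0.045, 0.012 and -0.049, and not every library correlated best with its own number. A fit with a replicate block called 3715 of all genes higher and 3462 lower, and 20 members higher and 15 lower, with MEIS2 the call that was lost. With 3 libraries per group, changes of genes near 10 normalized counts carry SEs above 0.6, and an SE is not the smallest change that passes. TBX15 at 0.74 ± 0.64 and SIX3 at 0.63 ± 0.88 did not pass, while PITX3 at 1.96 ± 0.78 did.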

Other observations

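Transcription factors of mesenchymal identity outside the homeobox and T-box families had a median size of log2 change of 0.74, beside 0.43 for the members and 0.33 over all tested genes. Of 33 tested genes of such a list, 17 rose, 13 fell and 3 did not pass (limma, adjusted p under 0.05), so that 90.9% were called beside 60.6% of all tested genes, with a median signed change of 0.34. SNAI1, a driver of mesenchymal transition, rose from 156 ± 13.5 to 2384 ± 117 normalized counts (mean ± SD, n = 3; 3.93 ± 0.10, SE), and MSC, a bHLH repressor of muscle, from 3.45 ± 1.29 to 51.2 ± 13.8. SOX4 rose from 479 ± 42.5 to 2610 ± 212. The Notch targets HEYL and HEY1 rose by 2.41 and 2.19, and SNAI2 by 1.78. NR2F2, an orphan nuclear receptor of venous and stromal cells, fell from 20277 ± 570 to 5892 ± 264. EBF2 went from 181 ± 16.7 to 51.3 ± 14.3 and OSR1, a gene of kidney and lateral mesoderm, from 177 ± 17.3 to 53.1 ± 15.8. GATA4, which holds stellate cells quiescent, fell by 0.68. The list was chosen with earlier results of these data known, and its relation to the HOX and TBX3 changes was not tested.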
